A study of Mus musculus with 12 samples.

Results

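The genes described here are 8 small-molecule methyltransferases, Inmt, Nnmt, Gamt, Gnmt, Pemt, Tpmt, Hnmt and As3mt, found among 56205 rows of a liver count table. They were chosen by name for what their enzymes do, with earlier results of these data known. All 8 were among the 13416 genes tested. Livers of 12 obese ob/ob mice, which carry a loss-of-function mutation of the leptin gene in every cell of both groups, were profiled by poly(A) RNA-seq, with 1 library per mouse as the labels read. The 6 OBOB_Fibrotic mice received chow with DL ethionine (0.165%) in the water over 2 weeks, and the 6 OBOB_FLO mice received chow alone. Fibrotic is the group name in the labels and is used below only as that name, not as a measure of scarring. All mice were young adults labelled male. The labels are not uniform on the dose, since a second field gives injection of 0.15% ethionine, and the described methods give that lower strength in water for a shorter time, so dose, route and duration are uncertain. No wild-type liver entered the comparison, so every value below is a difference between 2 groups of leptin-deficient livers.

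Each of these enzymes passes the methyl group of S-adenosylmethionine to a small molecule and leaves S-adenosylhomocysteine, which Ahcy splits so that methylation can go on. In liver, Gnmt and Pemt are regarded as major users of S-adenosylmethionine, Gamt completes creatine, and the others clear amines, nicotinamide, thiopurine drugs or arsenic. Ethionine is the ethyl analog of methionine and can replace it as a substrate for methionine adenosyltransferase, the enzyme that makes S-adenosylmethionine.

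Of the 8 genes, 5 fell in fibrotic livers, Inmt, Gamt, Tpmt, Gnmt and Hnmt, and none rose. Inmt fell 8.16-fold in the edgeR fit, Gamt 3.26-fold, Tpmt 2.38-fold, Gnmt 1.77-fold and Hnmt 1.71-fold. Pemt, Nnmt and As3mt did not pass the test. A gene was called where its false discovery rate (FDR) was at most 0.01 and its log2 fold change was past 0.5 in size, by edgeR's quasi-likelihood test with Benjamini-Hochberg adjustment over all tested genes, and edgeR FDR below means that adjusted value. The 5 of 8 called lower (62.5%) stand beside 14.0% of all tested genes called lower, and the 0 called higher beside 15.9%. Since the 8 genes were chosen with earlier results known, these shares describe them and are no test of the list. In either direction, 29.9% of tested genes were called. Inmt was the 1 gene of 8 called lower at a log2 fold change of -2 or less, as were 1.57% of tested genes, and Inmt, Gamt and Tpmt were the 3 at -1 or less, as were 5.89%. The median log2 fold change was -0.80 over the 8 genes and 0.03 over all tested genes.

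**Figure D1:**
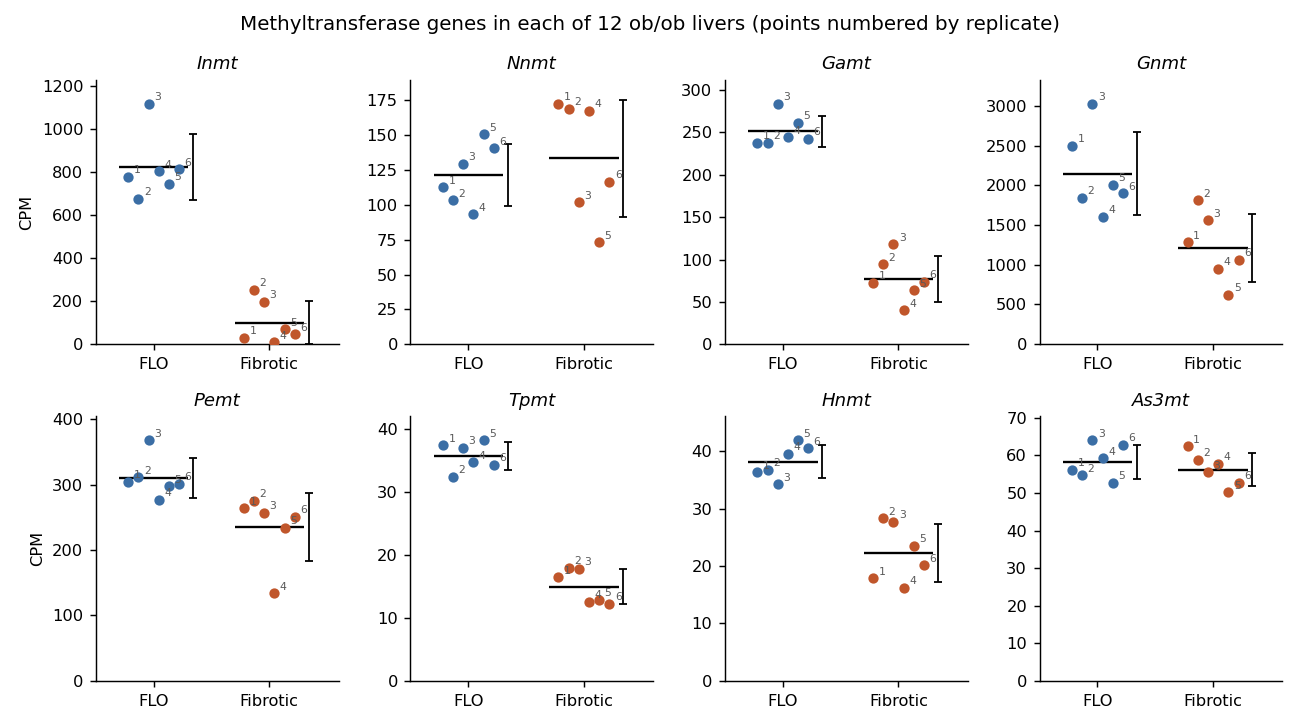
CPM, the counts of a gene scaled to a common library size, of each methyltransferase gene in each library, FLO in blue and Fibrotic in orange, with a horizontal line at the group mean and a bar of 1 SD to its right (n = 6 per group). The groups do not overlap for Inmt, Gamt, Tpmt, Hnmt and Pemt, overlap for Gnmt, and coincide over most of their range for As3mt. For Nnmt the fibrotic livers reach past both ends of the FLO range.

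Levels are given in CPM, the number of a gene's counts per 1e6 counts of a library after scaling by the trimmed mean of M values (TMM). Totals per library ran from 17815568 to 24814263 counts, and a methyltransferase gene held between 201 and 70742 counts in a library. Whole liver was sampled, so fewer cells of a type and less RNA per cell cannot be told apart in any difference below. The libraries held the liver's own signal, with all 10 hepatocyte markers tested and their summed CPM between 56600 and 92700.

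Gnmt makes sarcosine from glycine and had the highest level per kilobase of the 8 genes in both groups. It ranged from 1601 to 3027 CPM in FLO livers, with a median of 1953, and from 619.9 to 1810 in fibrotic livers, with a median of 1174. Of the fibrotic livers, 5 lay below every FLO liver, and fibrotic replicate 2 lay inside the FLO range. The means were 2146 ± 523 in FLO and 1215 ± 429.8 CPM in fibrotic livers (SD, n = 6 each), a log2 fold change of -0.82 (SE 0.23, edgeR FDR 0.0072). This call was the least firm of the 5. It was lost in 7 of 12 fits that each left out 1 library, at an edgeR FDR of 0.0104 to 0.0205, with the log2 fold change between -0.97 and -0.68 over all 12.

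Pemt converts phosphatidylethanolamine to phosphatidylcholine. Its levels were 277 to 367 CPM in FLO livers, with a median of 303, and 134 to 275 CPM in fibrotic livers, with a median of 254. The ranges did not overlap, but the gap between them was narrow and fibrotic replicate 4, at 134 CPM, stood well under the other 5 fibrotic livers, which held 234 CPM or more. The log2 fold change was -0.39 (SE 0.14, 95% interval -0.68 to -0.11, edgeR FDR 0.030), short of both thresholds. Counting Pemt, 5 of 8 genes had groups that did not overlap (62.5%), where 30.4% of all tested genes did, 15.1% with the fibrotic group below.

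Gamt adds the methyl group that turns guanidinoacetate into creatine. It was tightly grouped in FLO livers, from 238 to 284 CPM with a median of 243, and lay between 39.9 and 118 CPM in fibrotic livers, with a median of 72.9. Every fibrotic liver held less than every FLO liver, with fibrotic replicate 4 lowest and replicate 3 highest. The means were 251 ± 18.2 and 77.0 ± 26.8 CPM (SD, n = 6 each). The log2 fold change was -1.71 (SE 0.19, edgeR FDR 5.0e-06), lower than that of all but 2.29% of tested genes.

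Inmt methylates tryptamine and related indole amines, and its fall was the largest of the 8. FLO livers held 676 to 1118 CPM with a median of 792. Fibrotic livers held 30.6, 253, 196.5, 9.41, 68.6 and 46.6 CPM in replicates 1 to 6, a 26.9-fold span from lowest to highest, and all lay below the lowest FLO liver. The coefficient of variation was 98.9% among fibrotic and 18.5% among FLO livers. The edgeR log2 fold change was -3.03 (SE 0.68, edgeR FDR 0.0030), and the difference between the group means of log2 CPM was -3.76, or 13.5-fold. A mean of counts gives more weight to the higher livers than a mean of logs does. Without fibrotic replicate 2 the edgeR value was -3.55.

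Hnmt inactivates histamine by methylating its ring. It was measured at 34.3 to 41.9 CPM in FLO livers, with a median of 38.1, and at 16.2 to 28.3 CPM in fibrotic livers, with a median of 21.8. The groups did not overlap. The means were 38.2 ± 2.88 and 22.3 ± 5.08 CPM (SD, n = 6 each), and the log2 fold change was -0.78 (SE 0.13, edgeR FDR 0.00012).

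Nnmt methylates nicotinamide and so diverts it from NAD synthesis. FLO livers ranged from 93.3 to 151 CPM with a median of 121. Fibrotic livers ranged from 73.3 to 173 CPM with a median of 142, and reached both above and below the FLO range. Replicates 1, 2 and 4 of the fibrotic group lay above all FLO livers and replicate 5 lay below them. The log2 fold change was 0.13 (SE 0.20, 95% interval -0.25 to 0.52, edgeR FDR 0.59), an interval that includes a change past the 0.5 threshold.

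Tpmt methylates the sulfur of thiopurine drugs and was the gene with the lowest edgeR FDR of the 8. FLO livers held 32.4 to 38.1 CPM with a median of 35.8, and fibrotic livers 12.2 to 17.9 CPM with a median of 14.6. The 2 ranges were far apart relative to their widths. The means were 35.6 ± 2.21 and 14.96 ± 2.71 CPM (SD, n = 6 each), a log2 fold change of -1.25 (SE 0.11, edgeR FDR 3.0e-07). Tpmt is also the gene whose counting is least certain, because 17.4% of its exon bases lie opposite the processed pseudogene Gm18807 and 16.2% of its 50-base words occur in another gene. Gm18807 itself held 482 counts over all libraries against 5925 for Tpmt.

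As3mt methylates arsenite, and its level was nearly the same in both groups. FLO livers held 52.7 to 64.0 CPM with a median of 57.7, and fibrotic livers 50.2 to 62.4 CPM with a median of 56.6. The log2 fold change was -0.05 (SE 0.08, edgeR FDR 0.59), and its 95% interval of -0.20 to 0.10 lies inside the threshold of 0.5 on both sides. It was the least variable of the 8 genes among fibrotic livers, with a coefficient of variation of 7.82% beside 7.77% among FLO livers.

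**Figure D2:**
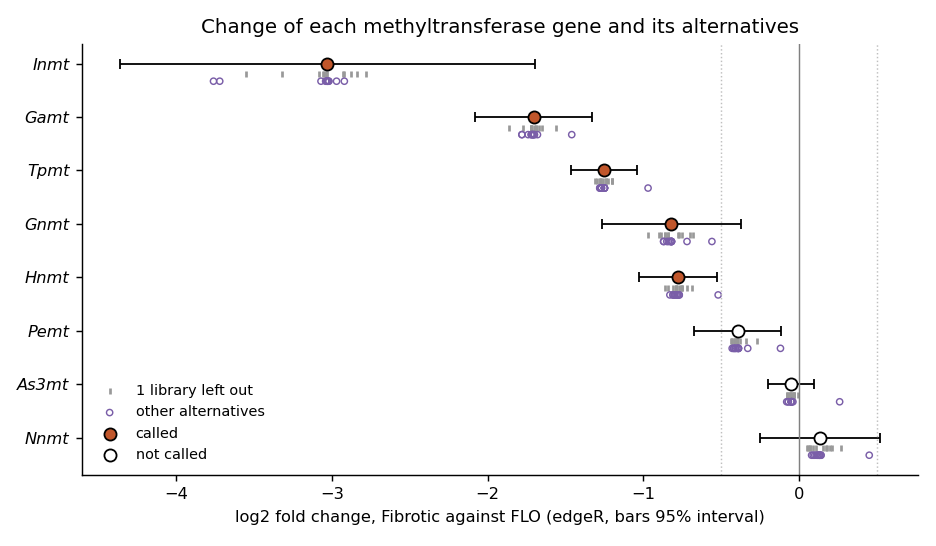
Log2 fold change of each methyltransferase gene, Fibrotic against FLO, with bars of the 95% interval, filled where called, with ticks for fits that left out 1 library and open purple circles for other processing choices. Dotted lines mark the threshold of 0.5. Inmt (-3.03) has the widest bar and As3mt (-0.05) the narrowest, and As3mt changes sign, to 0.26, under 1 alternative that scales to hepatocyte markers.

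Fibrotic livers were more spread out than FLO livers for most of these genes. On the log2 scale, the SD among fibrotic livers was 7.17 times that among FLO livers for Inmt and 5.25 times for Gamt. It was 3.04 times for Hnmt, 2.89 for Tpmt, 2.87 for Pemt, 1.88 for Nnmt, 1.66 for Gnmt and 1.01 for As3mt. The difference in spread was not tested. Fibrotic replicate 4 was the lowest fibrotic library for Inmt, Gamt, Pemt and Hnmt, and replicate 2 the highest for Inmt, Gnmt, Pemt, Tpmt and Hnmt.

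Several libraries and marker lists bear on these values. Xist, the RNA that silences an X chromosome in females, was counted 3773 times in FLO replicate 3 and at most 4 times in any other library. The Y-linked Ddx3y was counted 4 times in that replicate, which goes against its male label. It was the highest FLO library for Inmt, Gamt, Gnmt, Pemt and As3mt. Muscle creatine kinase Ckm was counted 267 times in FLO replicate 2 and 877 times in FLO replicate 3, and at most 2 times elsewhere. With neither of these libraries, 3 methyltransferase genes were called, Gamt, Tpmt and Hnmt, while Inmt was at -2.97 (edgeR FDR 0.0108) and Gnmt at -0.72 (edgeR FDR 0.0292).

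Summed hepatocyte markers ran from 56600 to 90500 CPM in fibrotic and from 80900 to 92700 CPM in FLO livers. Of these 10 markers, 2 were called higher and 2 lower, with a median log2 fold change of -0.22. Of all tested genes, 15.9% were called higher and 14.0% lower, which stand beside the counts of each marker list. Summed Kupffer cell and macrophage markers were above FLO in every fibrotic liver (314 to 640 against 249 to 282 CPM), with 8 of 10 called higher. Endothelial markers were below in every fibrotic liver (156 to 203 against 213 to 239 CPM), with 1 of 8 called lower. Cholangiocyte markers had 4 of 6 tested genes called higher and stellate cell markers 1 of 10. The other 9 stellate cell markers were not called, among them the collagen gene Col1a1 (-0.22, edgeR FDR 0.61). Few genes of the remaining lists passed the low-count filter, 2 of 8 for lymphocytes, 1 of 7 for mast cells, 2 of 7 for adipocytes and 1 of 6 for pancreatic acinar cells, and none was called. Their summed CPM in fibrotic and FLO livers was 1.5 to 5.06 and 2.02 to 5.21 for lymphocytes, 3.06 to 5.01 and 4.84 to 6.55 for mast cells, 103 to 213 and 107 to 282 for adipocytes, and 2.06 to 4.85 and 1.8 to 4.37 for acinar cells. Cpa3 and Fcer1a of the mast cell list and Cpa1 and Pnlip of the acinar list were at 0, while Kit and Cela1 of the same lists were detected at means of 3.87 and 3.17 CPM in fibrotic livers. The share of counts from mitochondrial genes was 4.93% to 7.88% in fibrotic and 7.30% to 10.2% in FLO livers. The part of these differences in the methyltransferase changes was not tested, except that libraries were rescaled to the summed hepatocyte markers. That scaling, chosen after seeing the data, raised the median of all genes from 0.03 to 0.33. It left 4 methyltransferase genes called lower, Inmt, Gamt (-1.46), Tpmt (-0.97) and Hnmt (-0.52), and Gnmt at -0.56 (edgeR FDR 0.0130).

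Within the fibrotic group, Inmt and Hnmt put the 6 livers in the same order (Spearman's rho 1.0, exact permutation p = 0.00278), with a Pearson's r of 0.98 (exact permutation p = 0.00139, the smallest that 6 livers can give) and 0.98 again without the 2 livers farthest from the median. After adjustment over 56 relations, 28 pairs in each group, these exact permutation values became p = 0.156 and p = 0.0778, and no pair passed 0.05. With 6 livers, a single pair at the smallest possible p could not have passed over 56 relations. That no pair passed is thus not informative about any pair taken alone. The median r over the 28 pairs was 0.58 among fibrotic and 0.36 among FLO livers. In FLO livers Inmt and Hnmt had an r of -0.52 (exact permutation p = 0.282, rho -0.31, adjusted p = 0.542). The summed hepatocyte markers of fibrotic replicates 1 to 6 were 65500, 90500, 83900, 56600, 67600 and 70500 CPM. They too were highest in replicate 2 and lowest in replicate 4, and their relation to these genes was not tested. Nnmt moved most closely with As3mt in fibrotic livers, with an r of 0.90 (exact permutation p = 0.0194, adjusted p = 0.256, rho 0.94, r of 0.91 without the 2 farthest livers).

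The order of the fibrotic livers was also compared with the first principal component of all other tested genes, a choice made after seeing the data. This component held 59.7% of the variance over all 12 libraries. Its score was between -51.0 and -43.3 in FLO livers and ran from 30.9 in fibrotic replicate 3 to 67.5 in replicate 4. Among the 6 fibrotic livers, Gamt had a Pearson's r of -0.98 with the score (exact permutation p = 0.00694, adjusted p = 0.0444 over 16 relations), with an r of -0.90 without the 2 farthest livers. Inmt had an r of -0.97 (exact permutation p = 0.00833, adjusted p = 0.0444) and Hnmt of -0.91 (exact permutation p = 0.00278, adjusted p = 0.0444). Their values without the 2 farthest livers were -0.96 and -0.86. Spearman's rho was -0.83 for Gamt and -0.94 for Inmt and Hnmt, and none passed after adjustment (p = 0.233, 0.133 and 0.133). Nnmt (r = 0.26) and As3mt (r = 0.05) had the weakest relations to the score (exact permutation p = 0.594 and 0.917). No relation passed among FLO livers, whose scores spanned a much shorter range. The score was built from the other genes of these same libraries. The share of all tested genes related to it as strongly was not computed. These relations thus do not set the methyltransferase genes apart from other genes.

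**Figure D3:**
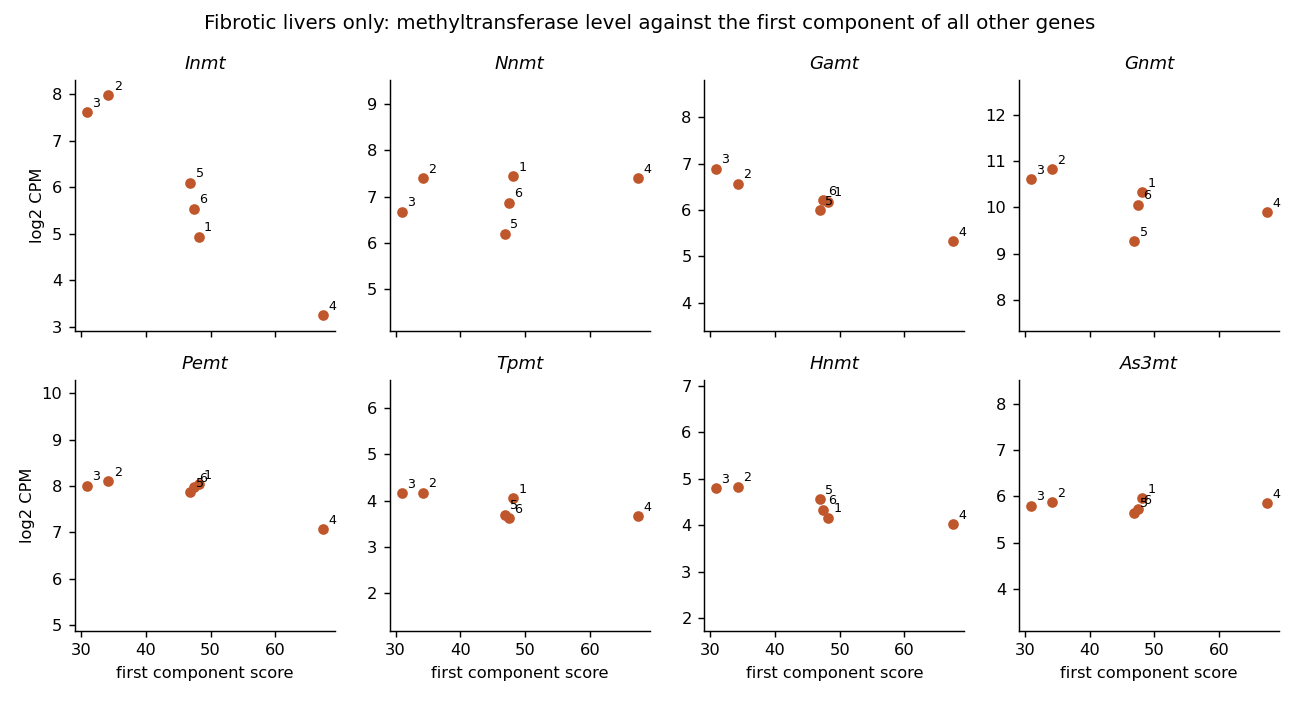
Log2 CPM of each methyltransferase gene against the first component score of all other genes in the 6 fibrotic livers, numbered by replicate, with every vertical axis spanning the same number of log2 units. Inmt, Gamt and Hnmt descend from replicates 2 and 3 to replicate 4, and As3mt stays level.

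Levels of different genes were compared per kilobase of the longest annotated transcript. In FLO livers the order was Gnmt (2070 ± 505 CPM per kb), Inmt (764 ± 142), Pemt (309 ± 30.4), Gamt (254 ± 18.5), Nnmt (117 ± 21.4), As3mt (33.6 ± 2.61), Hnmt (23.1 ± 1.74) and Tpmt (13.2 ± 0.82), as mean and SD over 6 livers. Neighbours in this order did not overlap except Pemt and Gamt. In fibrotic livers Gnmt was still first (1170 ± 415), ahead of Pemt (235 ± 51.6), Nnmt (128 ± 40.4), Inmt (93.6 ± 92.6), Gamt (78.0 ± 27.1), As3mt (32.4 ± 2.53), Hnmt (13.5 ± 3.07) and Tpmt (5.53 ± 1.0). There, the ranges from Pemt to Gamt overlapped each with the next, so the place of Inmt among them is not separate from its neighbours.

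The 8 genes summed to 3590 ± 670 CPM per kb in FLO and 1760 ± 563 in fibrotic livers (SD, n = 6 each), with no overlap between 2980 and 4810 on one side and 1080 and 2570 on the other. Gnmt made up 57.4% of the sum in FLO and 66.0% in fibrotic livers, and Inmt 21.4% and 4.71%. The last places depend on the length used. With the mean length of all annotated transcripts, Tpmt stood above Hnmt, without overlap in FLO livers but in 4 of 6 fibrotic livers (16.7 ± 3.03 and 15.6 ± 3.56 CPM per kb), where the ranges overlapped.

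**Figure D4:**
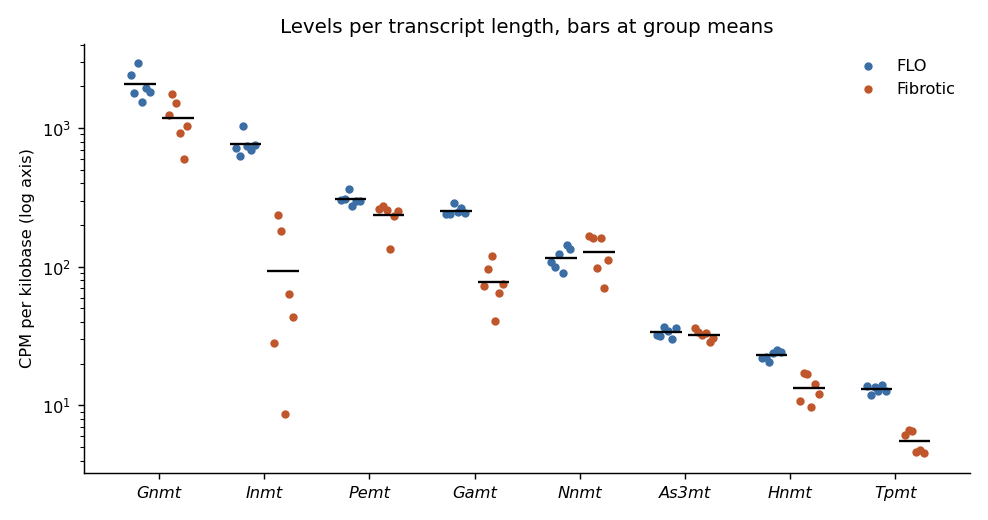
CPM per kilobase of the longest transcript for each methyltransferase gene on a log axis, one point per liver, FLO in blue and Fibrotic in orange, with bars at group means. Inmt moves from 764 in FLO livers, behind Gnmt, to 93.6 in fibrotic livers, behind Gnmt, Pemt and Nnmt, across a span from 8.73 to 235.

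The positions of the 8 genes, in the GRCm38 build with GENCODE M21, are on 8 different chromosomes. They are chr6:55170626-55175043 for Inmt, chr9:48591877-48605153 for Nnmt, chr10:80258151-80261012 for Gamt, chr17:46725664-46729168 for Gnmt, chr11:59970614-60046489 for Pemt, chr13:47022482-47044737 for Tpmt, chr2:24002910-24049394 for Hnmt and chr19:46707458-46741099 for As3mt. All but As3mt lie on the minus strand. Counts were summed over each gene, so no exon can be singled out. Of the 16 nearest tested genes, 1 on each side of every methyltransferase, 5 were called lower, 3 higher and 8 neither, beside 14.0% lower and 15.9% higher of all tested genes. Pex6, a peroxisome assembly gene 123 bp from Gnmt, was lower by -1.20 (edgeR FDR 6.6e-08). Cnnm2 beside As3mt was higher by 1.04, and both neighbours of Nnmt and of Gamt were not called.

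Promoter sequences are shown for the 3 genes with the largest falls, Inmt, Gamt and Tpmt, and for As3mt, whose level hardly differed. Each is the 250 bases before the annotated start, 5′ to 3′ on the gene's strand, from RefSeq (GRCm38.p6), where 7 of the 8 genes had a window. RefSeq and GENCODE M21 place some starts differently. The Tpmt window and both Pemt windows lie within the gene spans given above, and the Inmt, Gnmt and Hnmt windows partly do. Capitals mark 4 short motifs searched on both strands, the TATA box TATAAA, the GC box GGGCGG, the CCAAT box and the xenobiotic response core GCGTG. They were present in 12.4%, 32.7%, 33.8% and 28.2% of 32851 such windows, and no match overlapped another in the windows shown.
Inmt, chr6:55174991-55175240, minus strand: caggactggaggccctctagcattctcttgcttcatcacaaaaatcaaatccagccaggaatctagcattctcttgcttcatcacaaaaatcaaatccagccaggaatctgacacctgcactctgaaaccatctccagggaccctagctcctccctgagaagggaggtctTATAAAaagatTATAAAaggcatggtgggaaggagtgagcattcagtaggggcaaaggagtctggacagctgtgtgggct
Gamt, chr10:80261013-80261262, minus strand: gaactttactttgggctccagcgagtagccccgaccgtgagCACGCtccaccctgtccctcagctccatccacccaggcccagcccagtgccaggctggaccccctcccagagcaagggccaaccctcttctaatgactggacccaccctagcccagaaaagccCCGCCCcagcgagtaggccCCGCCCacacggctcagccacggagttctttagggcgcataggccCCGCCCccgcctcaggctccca
Tpmt, chr13:47043218-47043467, minus strand: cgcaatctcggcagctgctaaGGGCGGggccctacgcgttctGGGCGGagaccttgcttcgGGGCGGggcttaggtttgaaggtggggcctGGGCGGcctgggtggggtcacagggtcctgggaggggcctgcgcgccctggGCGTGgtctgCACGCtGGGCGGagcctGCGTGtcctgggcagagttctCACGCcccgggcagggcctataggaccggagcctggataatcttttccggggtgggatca
As3mt, chr19:46707208-46707457, plus strand: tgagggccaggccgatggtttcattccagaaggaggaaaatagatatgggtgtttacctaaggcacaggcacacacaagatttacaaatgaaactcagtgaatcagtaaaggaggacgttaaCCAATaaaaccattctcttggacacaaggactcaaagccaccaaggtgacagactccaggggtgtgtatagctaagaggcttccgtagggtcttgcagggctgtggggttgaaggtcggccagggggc
Inmt had 2 TATA boxes, starting 80 and 69 bases before the start, and none of the other motifs. It also held a 46-base stretch present as 2 copies in a row, at -235 and -189, and 65 of all windows (0.198%) had a repeat as long. Gamt had 3 GC boxes and 1 xenobiotic response core, and Tpmt had 5 and 4, with the base composition at 66.8% and 69.2% G or C beside a median of 52.4% over all windows. As3mt had 1 CCAAT box, which was also the only motif found for Hnmt and for the first of the 2 Pemt windows. Gnmt had 1 CCAAT box and 2 xenobiotic response cores. Of the genes that fell, Gamt, Gnmt and Tpmt thus held GCGTG and Inmt and Hnmt did not, while no window of Pemt or As3mt held it. That is 3 of 8 windows, beside 28.2% of all windows, and a relation to the changes was not tested. A match is a stretch of letters and was not tested as a bound site.

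For each gene, the 3 tested genes most like it were taken by Pearson's r of log2 CPM after subtracting group means, over all 12 livers and among 11347 candidates. These are maxima over many genes and carry no test. For Inmt they were Cryz (r = 0.979), Abhd14b (0.978) and Hykk (0.967), and all 3 were called lower. Within FLO livers their r with Inmt was 0.592, 0.816 and -0.116, against 0.987, 0.983 and 0.995 within fibrotic livers, where Inmt varied most. For Gamt they were Gm20319 (0.98), Cmbl (0.977) and Bco2 (0.967). Cmbl followed Gamt from liver to liver within groups while its own group difference was -0.16 (edgeR FDR 0.392). For Hnmt they were Nxt2 (0.962), Pank1 (0.948) and Scp2 (0.945), for Tpmt Gm48633 (0.938), Ccl27a (0.925) and Mettl8 (0.92), and for Gnmt Ebp (0.904), Agxt (0.899) and Plg (0.894).

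For the 3 genes that were not called, the most similar were Cnpy2 (0.98), Fndc4 (0.979) and Ebpl (0.973) for Pemt, Sdc4 (0.916), Slc25a34 (0.862) and Cldn14 (0.855) for Nnmt, and Nr2c2ap (0.877), Rps12-ps3 (0.866) and Cyp17a1 (0.852) for As3mt. Cyp17a1 lies 34286 bp from As3mt on chromosome 19. Of the 24 genes named as most alike, 12 were called lower, 2 higher and 10 neither, beside 14.0% and 15.9% of all tested genes called lower and higher. The lowest of these r values without the 2 farthest livers was 0.711.

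The genes around each methyltransferase were read from 10 lists, 84 genes in all, of which 71 were tested. Of these, 22 were called lower (31.0%) and 13 higher (18.3%), beside 14.0% and 15.9% of all tested genes, and the median log2 fold change was -0.08. Counts for single lists below are to be read beside the same shares, and no list was tested as a set.

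Of the 8 genes listed for supply of the methyl donor or removal of its product, 2 were called lower and 2 higher. Their summed CPM was lower in every fibrotic liver than in any FLO liver (2770 to 5180 against 6760 to 8210). Mat1a, the adult liver's methionine adenosyltransferase, was lower by -1.08 (edgeR FDR 0.00010), and Ahcy, which splits S-adenosylhomocysteine, by -1.15 (edgeR FDR 5.6e-05). Mat2a, the form of other tissues, was higher by 0.54 and the Ahcy-like Ahcyl2 by 0.56. Their levels were far lower, with FLO means of 103 and 18.9 CPM beside 4190 for Mat1a and 2224 for Ahcy. The other 4 of the 8 genes were not called. Among methyltransferases of other small molecules, Mettl7a1 (-0.95) and Mettl7a2 (-0.94) were lower and Mettl7b was higher by 0.64, from 996 ± 86.4 to 1554 ± 97.2 CPM. Mettl7a1 and Mettl7a2 are close paralogs and may share reads. Coq3, Coq5 and Carnmt1 were not called, and Pnmt and Mettl7a3 were at 0 counts.

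The sarcosine list around Gnmt had 3 of 5 genes called lower and none higher, beside 14.0% and 15.9% of all tested genes, with a median of -1.03. Pipox, which oxidizes sarcosine in peroxisomes, had the lowest value of all 10 lists, at -4.02 (edgeR FDR 1.1e-12), from 192 ± 17.4 CPM in FLO to 11.9 ± 1.496 in fibrotic livers. Sardh, its mitochondrial counterpart, was lower by -1.51 and Shmt1, which interconverts serine and glycine, by -1.03. Dmgdh and Gldc were not called. Around Pemt, 2 of 12 tested genes were called lower and 2 higher, near the shares of all tested genes, with a median of -0.07. Pcyt2 (-0.94) and Chpt1 (-0.64) of the ethanolamine and choline branches were lower, and Selenoi (0.67) and Ptdss2 (0.51) were higher. Around Gamt, Gatm, which makes the substrate of Gamt, was low in both groups (5.07 ± 0.75 CPM in FLO and 3.97 ± 1.22 in fibrotic livers) and not called. The creatine transporter Slc6a8 was higher by 0.93 at an edgeR FDR of 0.0098, and lost this call in 9 of 12 fits that left out 1 library.

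The nicotinamide list around Nnmt had 7 of 15 genes called lower and 1 higher, beside 14.0% and 15.9% of all tested genes, with a median of -0.62. Aox1, an aldehyde oxidase that acts on the product of Nnmt, was lower by -2.62 (edgeR FDR 2.6e-08). Haao, of NAD synthesis from tryptophan, was lower by -1.95, and Nnt, a mitochondrial transhydrogenase gene that is partly deleted in C57BL/6J mice, by -1.43. Naprt (-1.25), Nmnat3 (-0.76) and Nampt (-0.67), of NAD synthesis and salvage, were also lower. Aox3, a second aldehyde oxidase outside the naming rule and picked after its value was seen, was higher by 0.52. The calls in this list numbered 5 in fits without fibrotic replicate 1, fibrotic replicate 6 or FLO replicate 6.

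Lists around the genes that act on amines held large values in both directions. Maoa, which oxidizes serotonin and other amines, was higher by 3.84 (edgeR FDR 2.9e-10), from 14.96 ± 2.22 CPM in FLO to 215 ± 48.6 in fibrotic livers, and Maob was lower by -1.51 (edgeR FDR 2.3e-06), from 249 ± 37.9 to 87.3 ± 23.5 CPM. Afmid (-2.29) and Ido2 (-0.60), of tryptophan breakdown, were lower, while Ddc and Tdo2 were not called. Aoc1, which oxidizes histamine, was higher by 3.56 (edgeR FDR 2.7e-05), at low levels of 0.074 ± 0.066 and 0.98 ± 0.47 CPM. Slc22a3, an organic cation transporter, was higher by 0.78. Hdc, which makes histamine, had a log2 fold change of 0.59 and was not called.

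Around Tpmt, 1 of 7 genes was called lower, near the share of all tested genes, and 2 higher. Impdh2, of guanine nucleotide synthesis, was lower by -1.32 (edgeR FDR 1.7e-08), while its paralog Impdh1 was higher by 0.92 and the salvage enzyme Hprt by 0.51. Around As3mt, Pnp, a purine phosphorylase able to reduce arsenate, was higher by 1.40 (edgeR FDR 3.0e-07), and the channel Aqp9, which passes arsenite, was lower by -0.50, close to the fold threshold. Gsto1, Aqp7 and Abcc2 were not called.

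**Figure D5:**
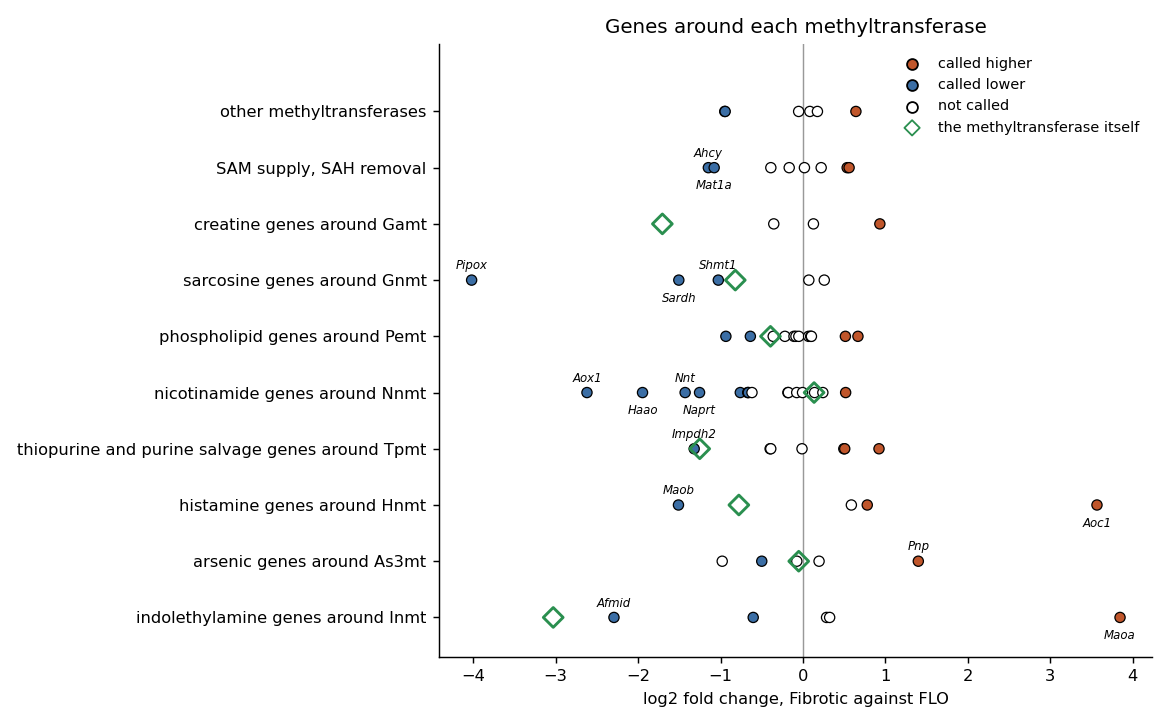
Log2 fold change, Fibrotic against FLO, of tested genes in the 10 lists, with 1 gene left out, filled orange where called higher, blue where called lower and white where not called, with a green diamond for the methyltransferase each list surrounds. SAM and SAH stand for S-adenosylmethionine and S-adenosylhomocysteine. Genes past 1 in size are named, with Pipox (-4.02) and Maoa (3.84) at the ends.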

How the data were processed

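Poly(A) libraries from whole liver were sequenced and, per the labels, processed with bcl2fastq and STAR 2.7.3a against mm10. The raw counts per gene that the authors deposited, 56205 Ensembl IDs in 12 libraries, were used as they stand. The annotation and strand setting of the counting are not given in the sources used here. Symbols came from GENCODE M21, which lacks 4460 of the IDs (0.0587% of counts). Nnt has 2 IDs, and the one with more counts was used. Genes were filtered with filterByExpr, scaled by TMM and tested with glmQLFit (robust) and glmQLFTest in edgeR 4.0.16 (R 4.3.3), with group as the one term. The SE of a log2 fold change came from its size and the quasi-likelihood F statistic. The 95% intervals used the normal multiplier, which makes them somewhat narrow with so few livers. CPM used the TMM library sizes, and log2 CPM a prior count of 2. Correlations used exact two-sided permutation of pairings (SciPy 1.17.1).

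The methyltransferases, lists and tests were chosen with earlier results of these data known. All 8 methyltransferases were named, and of each list the called genes, at most the 6 with the largest absolute log2 fold change. On simulated counts of 13306 genes, 98 genes were changed by a log2 fold of 1 and 99 by 2, in both directions. Of these, 70.4% and 94.9% were called, and 1.21% of calls were false. The simulation gave each gene 1 dispersion for both groups and changed far fewer genes than the 29.9% called in the data. Its rates may thus not hold for the data. Libraries of 1 group differed by at least 10.3 times the sampling noise (chi-square per degree of freedom over 30 pairs), so each was counted as 1 sample. No label gives a batch. The edgeR p-values set group differences against the variation between these livers, modelled as shared by both groups. Relative counting error is smallest for Gnmt and largest for Tpmt in 5 of 6 fibrotic livers and for Inmt in fibrotic replicate 4. Alternatives were other scalings, filters, tests and thresholds, the replicate number as a block, and leaving out libraries, with DESeq2 1.42.0 and limma 3.58.1. The rescaling to hepatocyte markers, the fits with neither FLO replicate 2 nor 3 and the component were added after seeing the data. Protein sequences were not used here, and 1 gene of the lists is counted in the totals but not reported here.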

Additional observations from a re-analysis of the deposited data

Results flagged for a closer look

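In each group of 6 livers, the gap from the highest or lowest library to its nearest neighbour was divided by the group's range, and 4 of 56 sets of values passed the 0.625 limit for 6 libraries, where chance gives 2.8 at 1 in 20. Inmt was highest in FLO replicate 3 (0.634), the library with Xist counts. Pemt was lowest in fibrotic replicate 4 (0.773), and so was the summed CPM of the other small-molecule methyltransferases (0.77). The summed stellate cell and fibroblast markers were lowest in FLO replicate 1 (0.674). With so few more than chance gives, these ratios single out libraries by their values alone.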

How the results depend on the processing

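Of 495 values recomputed under alternatives, 450 either kept their direction and side of the threshold or, for counts of calls and summed levels, moved by at most 1.5 times or by less than 1 SD. Gamt, Tpmt and Hnmt were called lower in all 24 alternatives, at -1.86 to -1.46, -1.31 to -0.97 and -0.86 to -0.52. Inmt missed with neither FLO replicate 2 nor 3 (-2.97, adjusted p = 0.0108), as its adjusted p ran from 2.4e-06 to 0.0108, and its leave-one-out values ran from -3.55 to -2.78. Gnmt missed without a low-count filter (-0.82, adjusted p = 0.0215), under hepatocyte marker scaling (-0.56, 0.0130), with neither FLO library (-0.72, 0.0292), and without fibrotic replicate 1, 4 or 6 or FLO replicate 1, 3, 5 or 6 (leave-one-out range -0.97 to -0.68), its adjusted p running from 0.00079 to 0.0292. Pemt passed at an FDR of 0.05 with no fold threshold (-0.39, adjusted p = 0.0304). As3mt changed sign under hepatocyte marker scaling (0.26, adjusted p = 0.1). That scaling called 3821 genes higher and 928 lower, in place of 2139 and 1873. The causes were not tested.

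Methyltransferases called numbered 3 with neither FLO library and 4 to 5 in leave-one-out fits. All genes called numbered 6994 at an FDR of 0.05 with no fold threshold, against 4012, where the thiopurine list had 5 calls. The creatine list went from 1 call to 0 under RLE and upper quartile scaling, no filter, limma-voom and with neither FLO library, to 2 under DESeq2, and to 0 to 1 in leave-one-out fits. The arsenic list went from 2 to 1 under TMM without the 50 most counted genes, with at least 10 counts in every library, under hepatocyte marker scaling and with neither FLO library, and to 1 to 2 in leave-one-out fits. The nicotinamide list went from 8 to 5 under hepatocyte marker scaling and with neither FLO library, and to 5 to 8 in leave-one-out fits. With mean transcript lengths the FLO sum was 4540 CPM per kb.

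No pairing of the mice by replicate number was seen, though weak correlations cannot exclude one. Deviations of same-numbered libraries had correlations of -0.162 to 0.104, and no fibrotic library correlated best with its own number. With the replicate number as a block, 3780 genes and 5 methyltransferases were called, Inmt at -3.72 and Gnmt at -0.87, and no methyltransferase call changed. Depth limits Tpmt most, at 241 to 352 counts in fibrotic libraries.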
